A study of Mus musculus with 12 samples.

Results

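Open chromatin was described at the 10 mouse genes of the alpha1 subunits of voltage-gated calcium channels (Cacna1a to Cacna1i and Cacna1s), 10 of 21887 protein-coding genes in the gene table used. The genes were taken from a list by name, and the rule uses no measured value. A peak was assigned to a gene when it overlapped the gene's RefSeq span in the build mm10, extended by 10 kb on each side. All 10 genes were found in the table. Each complete peak list held peaks at every one of the 10. These windows held 194 of 80735 peaks in EXT replicate 1, 356 of 123375 in EXT replicate 2 and 262 of 97961 in RC replicate 3. At least 1 peak in such a window was found for 76.6% of all protein-coding genes in EXT replicate 1, 80.8% in EXT replicate 2 and 78.4% in RC replicate 3.

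The alpha1 subunit is the protein that forms the calcium pore and senses voltage, and it sets the current type of the channel. Auxiliary beta and alpha2delta subunits bind to it and govern how much channel reaches the membrane and how it gates. In cortical neurons the Cav2 channels drive transmitter release at terminals, the L-type Cav1.2 and Cav1.3 channels couple depolarization to gene transcription, and the T-type Cav3 channels open near rest and shape burst firing. Cav1.1 is the voltage sensor of skeletal muscle contraction, and Cav1.4 serves release at photoreceptor terminals.

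The study asked how fear extinction changes the infralimbic prefrontal cortex (ILPFC), and the assay here was ATAC-seq, in which a transposase cuts accessible DNA. All mice were adult C57BL/6 males, 10 to 12 weeks old, and all had first learned to fear a tone through 3 tone and shock pairings. EXT mice heard 60 tones without shock 1 day later. RC (retention control) mice spent the same time in that second context and heard no tone. Tissue of 5 mice was pooled for each library, and 50000 sorted cells positive for the activity marker Arc and the neuronal protein NeuN went into each. Both groups are therefore limited to neurons with Arc protein, and a replicate is a pool of animals. Complete lists came from EXT replicates 1 and 2 and from RC replicate 3. The lists of RC replicates 1 and 2 were held only in part, to positions 166286196 and 37624379 of chromosome 1. RC replicate 1 therefore covers 2 of the 10 genes, Cacna1e and Cacna1s, and RC replicate 2 covers none. EXT replicate 3 was not analysed here. With 1 complete RC list no test between the groups was possible across the 10 genes.

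The libraries held 65002147 and 57663722 tags in EXT replicates 1 and 2, and 73835799 in RC replicate 3. The longest list came from the library with the fewest tags, EXT replicate 2. Peaks of 150 to 165 bp, about the length to which each tag was extended, made up 38.2% and 31.2% of the EXT lists and 40.8% of the RC replicate 3 list. Of 4 pan-neuronal marker genes with a start in the table, 3, 4 and 3 had a peak within 1 kb of a start in EXT replicate 1, EXT replicate 2 and RC replicate 3, and both excitatory markers had one in every complete list. None of 3 inhibitory, 3 astrocyte or 3 photoreceptor markers had such a peak in any complete list, and 2 of 6 skeletal muscle markers, Acta1 and Ryr1, had one in RC replicate 3 alone. Of 2 oligodendrocyte markers 1 had one, in EXT replicate 2, of 2 microglial markers none, and of 3 endothelial markers 1 and 2 in EXT and 2 in RC replicate 3, and the part of other cell types in the results below was not tested. Fold below means the authors' fold enrichment of a peak over the local background of its own library. Percentile means the percentile of a peak's −log10 q within its own list, with the best peak at the top. Neither value measures a change between lists. A peak present in fewer cells and a weaker peak in every cell cannot be told apart in pooled libraries.

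The sequences before 8 of the starts are shown because alpha1 starts with and without a peak differed in CpG content. RefSeq starts with strand were given for 7 of the 10 genes, with 10 starts in all; Cacna1a, Cacna1g and Cacna1h had no entry. The 250 bases before a start are shown 5′ to 3′ on the gene's own strand, from the RefSeq sequences of GRCm38.p6 (mm10). Capitals mark matches on either strand to GGGCGG (the GC box) or CAGCTG (an E-box), and TATAAA (the TATA box). The first 4 starts had a peak within 1 kb in all 3 complete lists.
Cacna1b, chr2:24763153-24763402, minus strand: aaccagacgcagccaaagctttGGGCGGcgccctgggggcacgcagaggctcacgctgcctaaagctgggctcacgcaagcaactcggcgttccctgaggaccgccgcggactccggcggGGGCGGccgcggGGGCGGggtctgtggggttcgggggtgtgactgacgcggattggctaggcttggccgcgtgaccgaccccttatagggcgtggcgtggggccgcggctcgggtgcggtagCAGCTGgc
Cacna1c second start, chr6:119108496-119108745, minus strand: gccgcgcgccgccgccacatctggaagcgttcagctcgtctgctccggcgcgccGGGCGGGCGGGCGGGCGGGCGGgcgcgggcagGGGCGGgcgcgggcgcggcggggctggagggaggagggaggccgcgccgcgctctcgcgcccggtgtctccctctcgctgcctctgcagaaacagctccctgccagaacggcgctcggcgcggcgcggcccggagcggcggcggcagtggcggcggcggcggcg
Cacna1d second start, chr14:30353487-30353736, minus strand: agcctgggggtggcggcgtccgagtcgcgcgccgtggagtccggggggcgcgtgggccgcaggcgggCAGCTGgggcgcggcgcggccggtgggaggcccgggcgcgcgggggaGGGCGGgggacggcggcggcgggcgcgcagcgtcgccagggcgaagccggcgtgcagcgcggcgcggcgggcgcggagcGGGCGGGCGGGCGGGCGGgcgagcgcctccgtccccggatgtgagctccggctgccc
Cacna1i, chr15:80286988-80287237, plus strand: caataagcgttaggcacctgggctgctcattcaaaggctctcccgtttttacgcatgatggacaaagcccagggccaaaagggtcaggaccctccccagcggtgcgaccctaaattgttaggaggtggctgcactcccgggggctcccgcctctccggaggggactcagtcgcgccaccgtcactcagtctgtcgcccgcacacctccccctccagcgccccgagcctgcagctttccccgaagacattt
The next 4 starts had no peak within 1 kb in any complete list. They are the starts of the muscle and retinal genes and the most upstream starts of Cacna1c and Cacna1d.
Cacna1s, chr1:136052561-136052810, plus strand: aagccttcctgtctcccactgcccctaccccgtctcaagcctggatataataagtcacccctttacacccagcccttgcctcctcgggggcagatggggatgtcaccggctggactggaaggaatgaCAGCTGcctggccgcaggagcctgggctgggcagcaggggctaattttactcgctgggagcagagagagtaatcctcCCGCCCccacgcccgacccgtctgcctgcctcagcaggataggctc
Cacna1f, chrX:7606853-7607102, plus strand: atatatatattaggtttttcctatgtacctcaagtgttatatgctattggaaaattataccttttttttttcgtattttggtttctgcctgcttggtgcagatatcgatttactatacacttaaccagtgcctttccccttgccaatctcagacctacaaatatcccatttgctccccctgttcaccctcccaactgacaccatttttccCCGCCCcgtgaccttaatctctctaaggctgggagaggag
Cacna1c first start, chr6:119196410-119196659, minus strand: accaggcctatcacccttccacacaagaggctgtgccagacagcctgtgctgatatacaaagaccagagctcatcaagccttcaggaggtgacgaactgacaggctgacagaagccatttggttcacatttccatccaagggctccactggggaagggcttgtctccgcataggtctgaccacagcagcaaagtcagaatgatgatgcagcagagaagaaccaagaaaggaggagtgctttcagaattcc
Cacna1d first start, chr14:30491157-30491406, minus strand: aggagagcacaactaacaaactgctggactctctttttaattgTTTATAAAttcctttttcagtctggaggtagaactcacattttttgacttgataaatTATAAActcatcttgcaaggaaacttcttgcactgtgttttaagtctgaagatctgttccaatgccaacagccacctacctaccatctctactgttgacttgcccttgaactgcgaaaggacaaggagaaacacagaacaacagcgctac

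The Cacna1c second start held 6 GC-box matches, counting overlapping ones, the Cacna1d second start 5 and Cacna1b 3. Cacna1i held none, and the starts of Cacna1s and Cacna1f held 1 each, as CCGCCC on the strand shown. A GC box occurred in the same window at 42.6% of 21263 protein-coding starts. The Cacna1d first start held 3 TATAAA matches on either strand, 2 of which overlap, a motif present at 11.6% of starts. CAGCTG was found once each before Cacna1b, the Cacna1d second start and Cacna1s, and at 12.1% of all starts. Neither TGANTCA (AP-1) nor TGACGTCA (the full CRE) was found before any of the 10 starts, against 6.13% and 1.92% of all protein-coding starts. A match describes letters in the window and nothing about binding.

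Peaks within 1 kb of a start were found for all 5 neuronal genes with a start in the table, in all 3 complete lists for 4 of them and in both EXT lists for Cacna1e, and for neither Cacna1s nor Cacna1f. Over the 7 genes, 5, 5 and 4 had a peak within 1 kb of a start in EXT replicate 1, EXT replicate 2 and RC replicate 3. Among 17492 protein-coding genes with a start the shares were 53.6%, 60.1% and 55.4% in the same lists. Among the 3132 such genes at least as long as Cacna1h (62050 bp) the shares were 68.5%, 77.3% and 69.7%. Finding a start peak at most of the neuronal genes was thus common among long genes, and the 7 genes are too few to set apart from them.

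**Figure D1:**
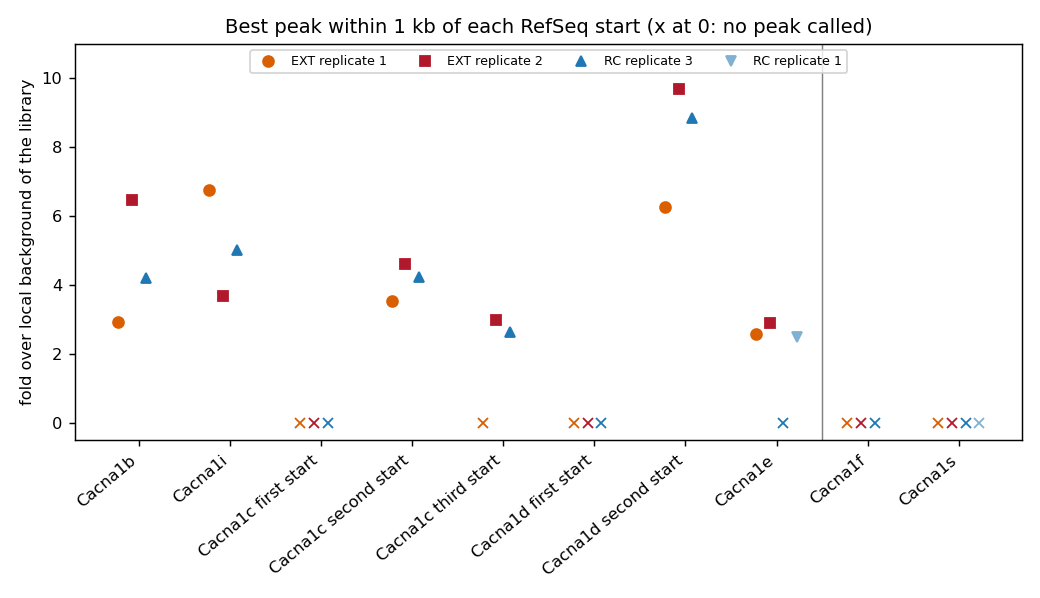
Fold of the best peak within 1 kb of each of the 10 RefSeq starts (y axis, fold over the local background of the library), with 1 symbol per list; a cross at 0 marks a start with no peak. Cacna1b, Cacna1i and the second starts of Cacna1c and Cacna1d had a peak in all 3 complete lists, while Cacna1f and Cacna1s, right of the line, had crosses only.

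Among the Cav2 genes, Cacna1b encodes Cav2.2, the N-type channel of presynaptic terminals. Its start on chromosome 2 at 24763152, minus strand, had 3, 2 and 2 peaks within 1 kb in EXT replicate 1, EXT replicate 2 and RC replicate 3. The best of them lay inside the gene after the start and had folds of 2.93 and 6.48 in the EXT lists and 4.20 in RC replicate 3. Another peak covered the start itself, with folds of 2.82 and 4.00 in EXT and 4.07 in RC replicate 3. The summit of the best peak lay 1123 bp after the start in EXT replicate 1, and 561 and 563 bp after it in EXT replicate 2 and RC replicate 3. Its folds in the 3 lists therefore do not all describe the same summit. Every complete list had overlapping peaks in both places. For the best peak the folds of the EXT lists lay on either side of the RC value.

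Cacna1e encodes Cav2.3, the R-type channel found in dendrites and terminals. Its listed start at 154725920 on chromosome 1, minus strand, had weak peaks, with folds of 2.59 and 2.90 in EXT replicates 1 and 2 and 2.50 in RC replicate 1. RC replicate 3 had no peak there, and its nearest one lay 4728 bp before the start. The 3 peaks stood at the 34.4, 38.0 and 37.0 percentiles of their lists, with summits 899, 858 and 878 bp before the start. The listed start lies well inside the annotated span, which runs to 154884785. RC replicate 1 had the peak, so its presence did not separate the groups.

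Among the L-type genes, Cacna1c encodes Cav1.2, the main L-type channel of cortical neurons and also that of heart and smooth muscle. Its second start at 119108495 had a peak in every complete list, with folds of 3.56 and 4.62 in EXT and 4.25 in RC replicate 3. The summits lay 604 and 856 bp before the start in EXT and 844 bp before it in RC replicate 3. The third start, at 118757974, was covered by a low peak in EXT replicate 2 (fold 2.99) and RC replicate 3 (fold 2.66) and by none in EXT replicate 1. The first start, at 119196409, had none, and the nearest peaks lay 9452 and 4370 bp away in EXT and 4537 bp away in RC replicate 3.

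Cacna1d encodes Cav1.3, an L-type channel that opens at more negative voltages and also serves the inner ear and the sinus node. A region just before its second start, at 30353486 on chromosome 14, had the highest mean percentile of any merged region at the 10 genes, 95.27. The intragenic region chr8:84494337-84495246 of Cacna1a nearly equalled it, at 95.26. The summits at the second start of Cacna1d lay 502 and 528 bp before the start in EXT and 514 bp before it in RC replicate 3. No peak covered the start itself, and the EXT replicate 1 peak was 160 bp wide. The folds were 6.28 and 9.69 in EXT and 8.85 in RC replicate 3, at the 91.0, 97.0 and 97.9 percentiles of those lists. In RC replicate 3 that peak ranked 2061 of 97961. The first start, at 30491156, had no peak within 1 kb in any of the 3.

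Among the T-type genes, Cacna1i encodes Cav3.3, known from thalamic reticular neurons. A peak covered its start at 80287238 on chromosome 15 in every complete list, with folds of 6.75 and 3.67 in EXT and 5.04 in RC replicate 3. The within-list percentiles were 94.4 and 52.9 in EXT and 81.8 in RC replicate 3, and for both measures the RC value lay between those of the EXT pools. Cacna1g (Cav3.1) and Cacna1h (Cav3.2) were described at both ends of the annotated span. At the upper end of Cacna1g, position 94474400 on chromosome 11, the folds were 5.21 and 8.43 in EXT and 7.49 in RC replicate 3, at the 86.7, 95.7 and 95.7 percentiles. Cacna1h had no peak within 1 kb of its upper end and a single low one at its lower end, in EXT replicate 2 (fold 3.35).

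Cacna1a encodes Cav2.1, the P/Q-type channel that carries most release at central synapses. Within 1 kb of its lower span end, 84338631 on chromosome 8, peaks had folds of 3.80 and 2.79 in the EXT lists, and RC replicate 3 had none. At the upper end, 84640251, all 3 lists had a peak, with folds of 4.51 and 6.13 in EXT and 3.78 in RC replicate 3. Over the 10 genes, 5, 8 and 6 had a peak at a span end in EXT replicate 1, EXT replicate 2 and RC replicate 3, beside 53.3%, 61.1% and 56.1% of all protein-coding genes. Of the 8 neuronal genes 4, 6 and 4 had one in these lists, and of the 2 others, Cacna1f and Cacna1s, 1, 2 and 2. By span ends the neuronal genes were thus not called more often, but a span end need not be a start. The Cacna1f calls lay at its downstream end in all 3 lists, as did the Cacna1s call in EXT replicate 2. The Cacna1s call in RC replicate 3 was a peak near the start of the neighbouring gene Ascl5. Cacna1c and Cacna1d had no peak at a span end, although their second starts had peaks in all 3 lists. Span ends therefore do not decide whether the classes differ at starts.

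Cacna1s encodes Cav1.1 of skeletal muscle, and Cacna1f encodes Cav1.4 of the retina. Cacna1s had no peak within 1 kb of its start at 136052811 on chromosome 1 in either EXT list or in RC replicates 1 and 3. Its nearest peaks lay 2896 and 1042 bp away in EXT and 1052 and 1002 bp away in RC replicates 1 and 3, all but the first before the start and with folds of 2.53 in EXT replicate 2, 2.36 in RC replicate 1 and 2.42 in RC replicate 3. Cacna1f had none at 7607103 on the X chromosome, and its nearest peaks, 1234 and 1595 bp away in EXT and 1580 bp away in RC replicate 3, lay at the start of the neighbouring gene Ccdc22. The contrast between the classes therefore depends on the window. At 2 kb, Cacna1f counted as having a start peak in all 3 complete lists and Cacna1s in EXT replicate 2 and RC replicate 3, and the totals over the 7 genes became 6, 7 and 6. The Cacna1s peaks lay within 1 kb of the start of the neighbouring gene Ascl5 at 136050804, so neither gain can be assigned to the channel gene. Of 817 X-linked protein-coding genes, 28.3% and 39.0% had a start peak within 1 kb in the EXT lists and 29.5% in RC replicate 3, lower shares than over all genes.

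The starts with a peak in all 3 complete lists were the CpG-rich ones. CpG-rich was set as an observed over expected CpG ratio of at least 0.6 with at least 50% G and C in the 250 bases. The 4 CpG-rich starts, Cacna1b (ratio 0.924), the Cacna1c second start (1.14), the Cacna1d second start (1.15) and Cacna1i (0.676), had a peak in 3 of 3 complete lists. Of the 6 CpG-poor starts, 4 had a peak in none, and the Cacna1c start at 118757974 (0.317) and Cacna1e (0.355) in 2. Cacna1s (0.375) and Cacna1f (0.403) were both CpG-poor, with ratios close to that of Cacna1e. Over all protein-coding genes, 85.3% and 91.7% of 8827 CpG-rich starts had a peak in the EXT lists and 86.4% in RC replicate 3. Of 12436 CpG-poor starts, 29.0% and 36.2% had one in EXT and 31.5% in RC replicate 3. The muscle and retinal starts thus both stood in the CpG-poor class, where most starts had no peak, but that class is broad. In the narrower ratio bin from 0.3, which holds Cacna1s, 32.0% and 40.5% of starts had a peak in EXT and 33.7% in RC replicate 3. In the bin from 0.4, which holds Cacna1f, 48.6% and 60.1% had one in EXT and 53.2% in RC replicate 3. Tissue class and CpG content cannot be told apart with 2 such genes.

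**Figure D2:**
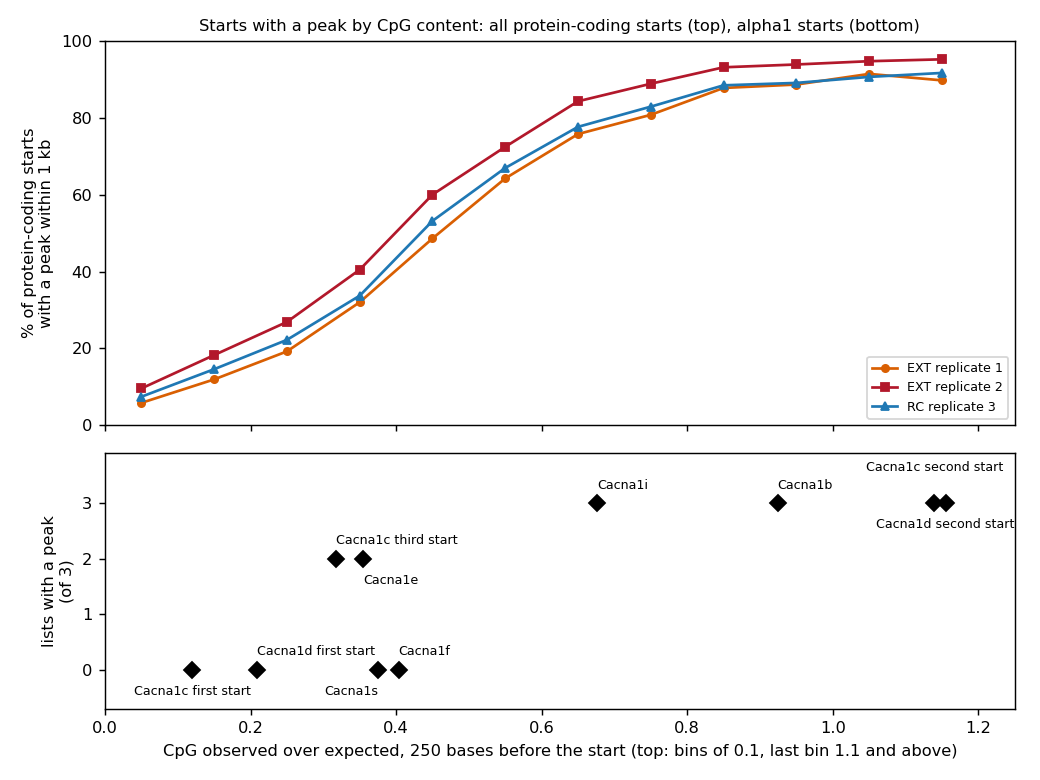
Top, share of all protein-coding starts with a peak within 1 kb (y axis, percent) by the observed over expected CpG ratio of the 250 bases before them, 1 line per complete list; bottom, for each of the 10 alpha1 starts, the number of complete lists with a peak. The 4 alpha1 starts with ratios from 0.676 to 1.15 had a peak in 3 lists, and those below had one in 0 or 2.

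Most peaks at the 10 genes lay inside them and away from the listed starts. Intragenic peaks outside the start windows numbered 174, 323 and 237 in EXT replicate 1, EXT replicate 2 and RC replicate 3. Start windows held 8, 9 and 7 peaks, and the flanks 12, 24 and 18. Cacna1a, Cacna1g and Cacna1h had no listed start, so every peak inside their spans counted as intragenic. That includes the peak at the upper end of Cacna1g, so peaks at starts may be undercounted. The longest gene, Cacna1c (610145 bp), held the most peaks, with 48 and 81 in EXT and 65 in RC replicate 3. Cacna1f (28094 bp), the shortest, held 5 and 7 in EXT and 6 in RC replicate 3. Which peaks lay in exons or introns was not analysed here.

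Per length, the alpha1 genes held more peaks than the median long gene in every complete list. Their median was 7.62 and 14.1 peaks per 100 kb in EXT and 10.1 in RC replicate 3, counted over span and flanks. The 4033 protein-coding genes at least as long as Cacna1h had medians of 4.55 and 6.83 in EXT and 5.53 in RC replicate 3. Each of the 10 exceeded the long-gene median in all 3 lists by this count, including Cacna1f, which is shorter than the genes of that class. Inside the spans alone the exception was Cacna1f in RC replicate 3, with 3.56 peaks per 100 kb against a long-gene median of 5.43. Within EXT replicate 1 the densities ran from 5.75 (Cacna1s) to 10.4 (Cacna1f), in EXT replicate 2 from 10.7 (Cacna1i) to 17.7 (Cacna1a), and in RC replicate 3 from 9.19 (Cacna1s) to 15.1 (Cacna1g). The order of the genes differed between the lists. Cacna1s had a higher density than 62.4% and 87.8% of long genes in EXT and 78.4% in RC replicate 3, and Cacna1g than 82.7%, 94.7% and 97.2% in the same lists.

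Neuronal genes did not hold a higher median density than Cacna1f and Cacna1s by this measure. The 8 neuronal genes had medians of 7.62 and 14.0 peaks per 100 kb in EXT and 10.1 in RC replicate 3, and the other pair 8.07 and 14.2 in EXT and 10.8 in RC replicate 3. Inside the spans alone the order turned. There the neuronal genes had 7.96 and 14.1 in EXT and 10.7 in RC replicate 3, against 6.54 and 9.53 in EXT and 6.26 in RC replicate 3 for the pair. Cacna1f was the gene whose peaks lay mostly in its flanks, with 3 of 5 and 5 of 7 in EXT and 5 of 6 in RC replicate 3. A flank peak lay at the start of Syp, which encodes the synaptic vesicle protein synaptophysin, with folds of 5.04 and 5.49 in EXT and 5.08 in RC replicate 3. Another, at the start of Ccdc22, had folds of 3.54 and 3.27 in EXT and 4.43 in RC replicate 3. Inside Cacna1f itself 2 and 2 peaks were found in EXT and 1 in RC replicate 3. The region of all 3 lists there, chrX:7635018-7635473 at the downstream end, had folds of 3.28 and 5.83 in EXT and 2.91 in RC replicate 3.

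**Figure D3:**
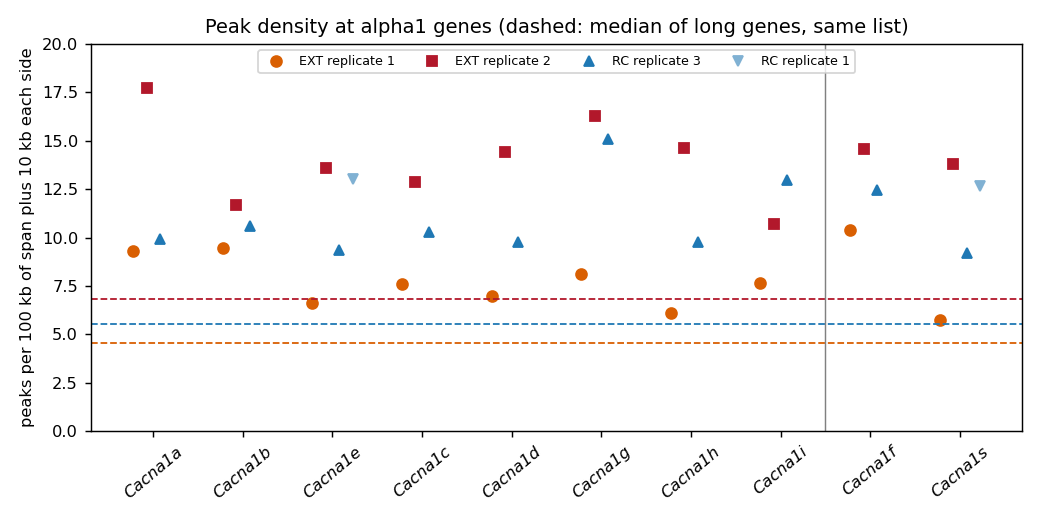
Peaks per 100 kb of span plus flanks (y axis) for each alpha1 gene, 1 symbol per list, with the median of 4033 long genes in the same list as a dashed line; Cacna1f and Cacna1s stand right of the line. All 10 genes lay above the median of their list, and EXT replicate 2 gave the highest value at 9 of them, all but Cacna1i.

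A merged region joins peaks of the complete lists that overlap by at least 1 bp. The wide regions named in this paragraph were held by all 3 complete lists. Not every high-ranked intragenic region was. Among intragenic regions missing from at least 1 complete list, 2 had the highest mean percentiles. They were chr17:25386604-25386763 in Cacna1h and chr15:80397453-80397612 in Cacna1i, both 160 bp wide. Neither had a peak in EXT replicate 1. In Cacna1a, chr8:84494337-84495246 had folds of 5.17 and 9.45 in EXT and 5.60 in RC replicate 3, at the 93.0, 98.6 and 94.2 percentiles. In Cacna1b, chr2:24609646-24610174 had folds of 5.49 and 8.03 in EXT and 6.11 in RC replicate 3. Both were wide regions high in all 3 lists. In Cacna1c, chr6:118977598-118978490, which overlaps the lncRNA Gm50599, had folds of 3.78 and 5.24 in EXT and 5.15 in RC replicate 3. In Cacna1h, chr17:25411104-25411630 ranked highest of the regions wider than 200 bp, with folds of 3.05 and 6.85 in EXT and 4.36 in RC replicate 3. In Cacna1i, apart from the start, the highest such region lay in the upstream flank at chr15:80278310-80278971, with folds of 4.25 and 6.50 in EXT and 5.51 in RC replicate 3. In Cacna1s, chr1:136061727-136062614 had folds of 3.57 and 3.52 in EXT and 4.23 in RC replicate 3, at no more than the 64.5 percentile of any of these lists.

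The highest fold at any of the 10 genes came from a narrow peak in Cacna1e. The peak chr1:154506263-154506425, 163 bp wide, had identical bounds in 4 lists, with folds of 5.41 and 20.0 in EXT and 24.3 and 13.5 in RC replicates 1 and 3. It ranked 17920 of 80735 and 832 of 123375 in the EXT lists, and 16 of 6451 and 625 of 97961 in RC replicates 1 and 3. The RC replicate 1 list covers only part of chromosome 1, so the ranks are not on 1 scale. As percentiles of their lists they were 77.8 and 99.3 in EXT and 99.8 and 99.4 in RC replicates 1 and 3. EXT replicate 1 stood apart from the other 3 lists there. Other narrow peaks held the top intragenic rank of at least 1 list in most genes. In Cacna1c it was chr6:118610508-118610667 in EXT replicate 2 (fold 14.97) and RC replicate 3 (fold 8.52), and chr6:118904097-118904256 in EXT replicate 1 (fold 6.19). In Cacna1i it was chr15:80397453-80397612 in EXT replicate 2 (fold 7.08) and RC replicate 3 (fold 4.89), and chr15:80378178-80378337 in EXT replicate 1 (fold 4.28). In Cacna1s it was chr1:136083088-136083248 in EXT replicate 1 (fold 6.46) and RC replicate 3 (fold 7.08). These peaks were 160 or 161 bp wide, and for each of the 3 genes RC replicate 3 shared its top peak with 1 of the EXT lists. The other EXT list ranked such a peak lower. The peak chr6:118610508-118610667 had a fold of 3.26 in EXT replicate 1, at the 29.1 percentile. The peak chr1:136083088-136083248 had a fold of 3.53 in EXT replicate 2, at the 22.1 percentile. The shared Cacna1i peak was not called in EXT replicate 1. In EXT replicate 1 the top intragenic peaks of Cacna1b (chr2:24664091-24664250, fold 6.40), Cacna1d (chr14:30049674-30049835, fold 5.11), Cacna1e (chr1:154449949-154450109, fold 9.23) and Cacna1h (chr17:25377474-25377637, fold 4.75) were narrow as well. In EXT replicate 2 those of Cacna1b (chr2:24717506-24717971, fold 10.2), Cacna1d (chr14:30317790-30319110, fold 7.22) and Cacna1s (chr1:136055643-136056363, fold 5.03) were wider than 200 bp. In Cacna1f the top intragenic peak of EXT replicate 1 was chrX:7610796-7611169, with a fold of 4.02. Peaks of 150 to 165 bp were 28.4% and 26.7% of the peaks at the 10 genes in EXT and 32.8% in RC replicate 3, below their share of each whole list.

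Inside the spans of the long L-type genes, peaks also lay at starts of neighbouring genes. In Cacna1d, chr14:30479204-30479963 covered the start of Dcp1a, an mRNA decapping factor, with folds of 5.00 and 9.01 in EXT and 7.82 in RC replicate 3. In Cacna1c, chr6:119174869-119175710 covered the start of its paralogue Dcp1b, with folds of 4.17 and 10.3 in EXT and 4.98 in RC replicate 3. Such peaks count as intragenic by position and cannot be assigned to the channel gene. A smaller one in Cacna1h, chr17:25386604-25386763, lay within 1 kb of the lncRNA Gm33617 and had folds of 7.88 in EXT replicate 2 and 6.36 in RC replicate 3 and no peak in EXT replicate 1.

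**Figure D4:**
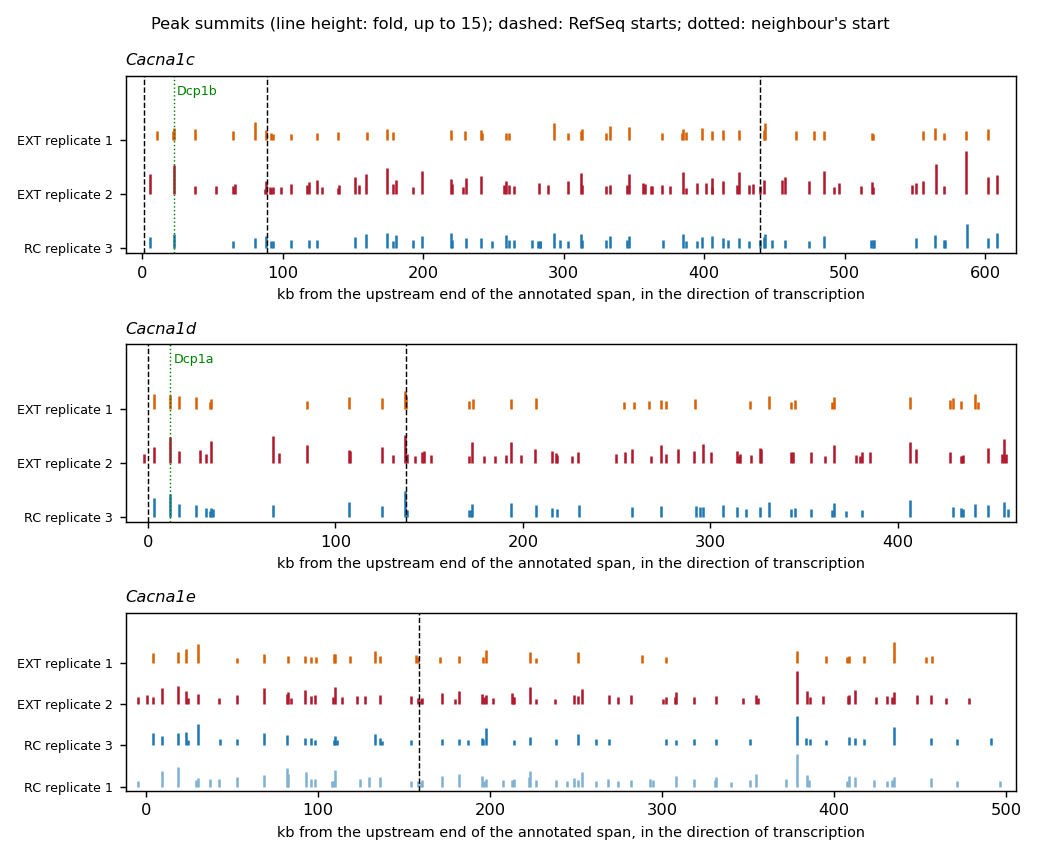
Peak summits along Cacna1c, Cacna1d and Cacna1e (x axis, kb from the upstream end of the span in the direction of transcription), 1 row per list with line height giving fold, RefSeq starts dashed and the start of a neighbouring protein-coding gene dotted. All 3 complete lists had a peak at the starts of Dcp1b and Dcp1a, and the narrow Cacna1e peak was the tallest in EXT replicate 2 (fold 20.0) and in RC replicates 1 and 3 (folds 24.3 and 13.5), drawn up to a fold of 15.

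The EXT and RC lists were compared first by how many of their peaks fell at the 10 genes. Per 10000 peaks of a list, 24.0 and 28.9 lay there in EXT and 26.7 in RC replicate 3. The EXT mean of 26.4 (SD 3.41, n = 2) differed from the single RC value by -0.303, less than the spread between the EXT pools.

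For Cacna1e and Cacna1s, RC replicate 1 allowed 2 lists against 2. Per 1000 peaks of chromosome 1 up to the end of the RC replicate 1 list, Cacna1e held 8.03 and 10.8 in EXT and 10.4 and 9.49 in RC replicates 1 and 3. The means were 9.39 ± 1.93 in EXT and 9.94 ± 0.631 in RC (SD, n = 2 each), a difference of -0.548, with a two-sided exact permutation p of 1. Cacna1s held 1.18 and 1.84 in EXT and 1.71 and 1.58 in RC. Its means were 1.51 ± 0.469 in EXT and 1.64 ± 0.0869 in RC (SD, n = 2 each), a difference of -0.132, again with an exact permutation p of 1. The smallest p that 2 against 2 allows is 0.333, so the test could not have shown a difference whatever the values. Its p-values do not show that the groups are alike either. For both genes the EXT values lay on either side of the RC values.

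The peaks merged into 456 regions at the 10 genes. All 3 complete lists held 111 of them (24.3%), against 25.8% of 168512 regions over the genome. Both EXT lists and not RC replicate 3 held 21 (4.61%, against 4.34% over the genome), and RC replicate 3 alone held 45 (9.87%, against 10.7%). EXT replicate 2 alone held 144 (31.6%, against 29.2%), the largest class, and EXT replicate 1 alone 33 (7.24%, against 9.38%). EXT replicate 2 shared 79 regions with RC replicate 3 that EXT replicate 1 lacked (17.3%, against 13.4%), and EXT replicate 1 shared 23 with RC replicate 3 alone (5.04%, against 7.14%). The shares at the alpha1 genes stood near those of the genome, also for the class held by both EXT lists and not by RC replicate 3.

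**Figure D5:**
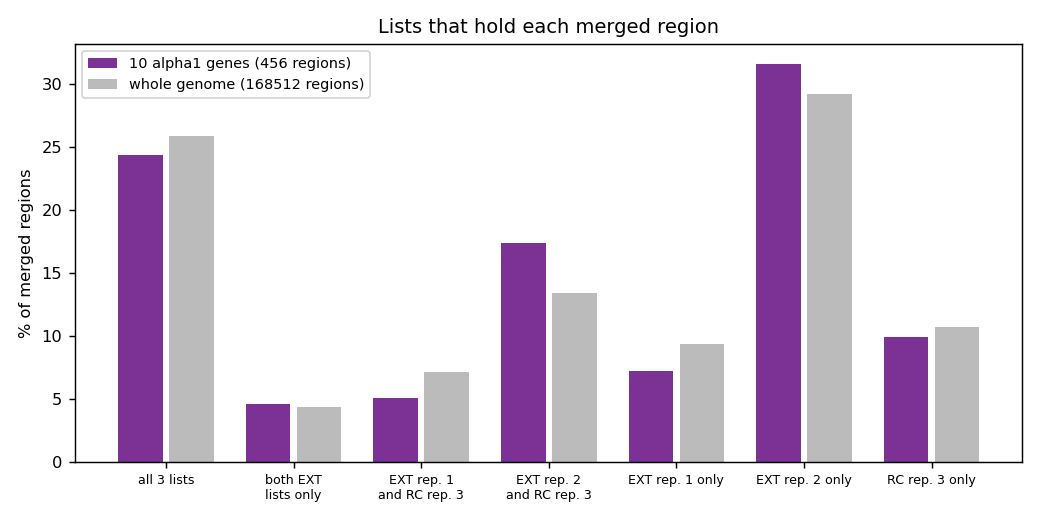
Share of merged regions (y axis, percent) held by each combination of the 3 complete lists, for the 456 regions at the 10 alpha1 genes and for 168512 regions over the genome. Regions of EXT replicate 2 alone formed the largest class in both sets, at 31.6% and 29.2%.

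The 21 regions of both EXT lists were spread over Cacna1a (6), Cacna1c (4), Cacna1d (4), Cacna1e (4), Cacna1b (1), Cacna1f (1) and Cacna1s (1), with none in Cacna1g, Cacna1h or Cacna1i. The highest-ranked was chr2:24685425-24685765 in Cacna1b, with folds of 3.02 and 4.50. Next came chr1:154802361-154802732 in Cacna1e, with folds of 3.24 and 5.25. In Cacna1d, chr14:30199160-30199764 had folds of 3.34 and 4.14. The flank region chr1:136128399-136128947 of Cacna1s, inside the lncRNA Gm15850, had 2.64 and 3.49, and chr6:118641403-118641562 in Cacna1c had 3.41 and 4.61. Over all 21 the mean percentile of a region ran from 3.68 to 58.4 with a median of 35.7. Over the 111 regions of all 3 lists it ran from 12.6 to 95.3 with a median of 60.2, so the ranges overlapped.

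Of the 45 regions of RC replicate 3 alone, the highest-ranked lay in the upstream flank of Cacna1i at chr15:80284378-80284537, with a fold of 3.84. Cacna1d held the next 3, chr14:30198532-30198793 (fold 3.77), chr14:30196277-30196592 (3.24) and chr14:30184464-30184613 (4.06). The fifth, chr1:136076198-136076398 in Cacna1s, had a fold of 3.96. The first of the Cacna1d regions lay beside the region of both EXT lists at chr14:30199160-30199764. Narrow regions of 150 to 165 bp made up 18 of the 45, against 1 of the 21 of both EXT lists and 15 of the 111 in all 3. Over the genome the shares were 38.7%, 5.71% and 20.8%.

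RC replicate 1 gave a direct check on these classes at Cacna1e and Cacna1s. All 5 regions held there by both EXT lists and not by RC replicate 3 had a peak in RC replicate 1. On chromosome 1 as far as that list runs, 75.7% of such regions did. Of 10 regions held by RC replicate 3 alone, 2 were in RC replicate 1, where 19.8% of such chromosome 1 regions were. RC replicate 1 held 18 of 36 regions of EXT replicate 2 alone (45.5% on chromosome 1) and 0 of 6 of EXT replicate 1 alone (15.4%). It held 19 of 23 regions of all 3 complete lists (86.0%), 17 of 18 of EXT replicate 2 and RC replicate 3 (89.5%) and 1 of 5 of EXT replicate 1 and RC replicate 3 (19.7%). No region at these genes was thus held by both EXT lists and by neither of the RC lists, and for the 8 other genes this could not be checked.

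The genes of the auxiliary subunits were described by the same measure. Of 16 such genes 13 had a start in the table, and 6, 11 and 7 of the 13 had a peak within 1 kb in EXT replicate 1, EXT replicate 2 and RC replicate 3, beside 53.6%, 60.1% and 55.4% of all protein-coding genes. The beta subunits, which chaperone the alpha1 subunit to the membrane, had 3, 4 and 4 of 4. The alpha2delta subunits, the targets of gabapentin, had 1, 3 and 1 of 3, and the gamma subunit family, several of which regulate AMPA receptors, had 2, 4 and 2 of 6. EXT replicate 2 had as many or more than the other lists in each of these families.

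The highest mean percentile among them was that of Cacna2d1, which had folds of 9.09 and 9.97 in EXT and 9.51 in RC replicate 3. Cacnb4 had folds of 3.86 and 6.74 in EXT and 6.53 in RC replicate 3, and Cacnb1 2.71 and 5.22 in EXT and 2.97 in RC replicate 3. Cacnb3 and Cacng3 also had a start peak in all 3 complete lists. Cacnb2, Cacng2 and Cacng7 had one in 2 lists. Cacna2d2, Cacna2d3 and Cacng5 had one in EXT replicate 2 alone, and Cacng6 and Cacng8 had none in any. Within 2 kb the counts over the 13 genes were 8 and 11 in EXT and 11 in RC replicate 3.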

How the data were processed

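Peak lists of 5 ATAC-seq libraries were used, 2 EXT and 3 RC, grouped and numbered by title; where a file name and a title gave different replicate numbers, the title was used. Per the submitters' processing notes, the build was mm10, peaks involved MACS2 2.2.4, and SAMtools 1.8, bedtools 2.27.1 and cutadapt 1.17 were among the tools; the notes name the aligners BWA 0.7.17 and HISAT2 2.1.0 without assigning either to these reads. Per the file headers, each library went through MACS 2.2.4 on its own, with no control, a shift of -75 bp, extension to 150 bp, a q-value cutoff of 0.05 and duplicates kept, so copies of 1 molecule can add to a peak. The deposited pileup is a coverage signal, in whole tags at the summit. The deposited fold enrichment is a ratio of that signal to the background around the peak in its own library. The authors' −log10 p and −log10 q per peak refer to that background too, and −log10 q set the ranks within a list. The partial last line of the lists of RC replicates 1 and 2 was dropped.

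Peaks were assigned by overlap of at least 1 bp with RefSeq spans plus 10 kb. Starts with strand were given for 7 of the 10 genes, so the window of 1 kb around a start was used for these alone and both span ends were described for all. Density was peaks per 100 kb. Overlapping peaks of the 3 complete lists were merged into regions. The analysis used Python 3.11.15 with pandas 2.3.3 and numpy 2.4.6, and the overlap code was tested on simulated data. The genes, the lists of auxiliary and marker genes and the settings were chosen with earlier results of these data known. Named regions are, for each gene, its start peaks and its highest-ranked intragenic peak in each complete list, and the 5 highest-ranked regions of both EXT lists and of RC replicate 3 alone; examples beside neighbouring genes, the upstream flank of Cacna1i and further shared regions wider than 200 bp were chosen after their values were seen. Peak lists hold no read counts per region, and the only measure of error is how far the pools differ. Alternatives were other start windows, no flank, lists of equal length, a −log10 q of at least 5, summit position, leaving out a library and, added after seeing the data, peaks wider than 200 bp only. The lncRNA capture libraries and EXT replicate 3 were not analysed here.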

Additional observations from a re-analysis of the deposited data

How the results depend on the processing

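Of 81 recomputed values, 60 stayed within 1.5 times the count reported or within the spread between the EXT pools, and 21 moved. No paired analysis was possible because the complete lists of the 2 groups share no replicate number, and on chromosome 1 they share only number 1. The numbers of alpha1 genes with a start peak stayed within that range under every alternative, from 4 to 6 in EXT replicate 1, 4 to 7 in EXT replicate 2 and 4 to 6 in RC replicate 3, but with a 2 kb window Cacna1f and Cacna1s joined them. In that window 11 auxiliary genes had a start peak in RC replicate 3. Peaks over the 10 genes numbered 126 in EXT replicate 1 with a −log10 q of at least 5 and 201 in EXT replicate 2 with lists of equal length. Counting only peaks wider than 200 bp left 116 and 228 in EXT and 152 in RC replicate 3. The EXT minus RC replicate 3 difference per 10000 peaks ran from -2.72 to 2.11 as either EXT list was left out, so its sign rests on 1 library, and was -2.79 with lists of equal length.

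The difference in median density, neuronal genes minus Cacna1f and Cacna1s, changed sign or size with the setting. With no flank it was 1.42 and 4.55 in EXT and 4.40 in RC replicate 3, with a −log10 q of at least 5 it was -1.17 and -0.48 in EXT and 0.53 in RC replicate 3, and with lists of equal length -1.22 in EXT replicate 2 and -0.10 in RC replicate 3. Without Cacna1d it was -0.55 in EXT replicate 2, and with peaks wider than 200 bp -1.51 and -0.94 in EXT. Merged regions in all 3 lists numbered 63 when a peak had to cover 50% of the region and 70 with peaks wider than 200 bp. With a −log10 q of at least 5, 13 regions were in both EXT lists alone and 23 in RC replicate 3 alone. The cause of these moves was not tested. A region missing from a list may lie under its threshold, and 1 complete RC list allows no test between the groups.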
